A study of Mus musculus with 10 samples.

Results

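The genes described here are those whose symbol in the deposited table starts with Kcn, Scn or Cacn, the families of potassium, sodium and voltage-gated calcium channels and their subunits. Of the 29583 rows of the table, 138 matched this rule with an Ensembl identifier, 94 of them potassium, 18 sodium and 26 calcium channel genes. The cells were MC3T3-E1, an established mouse line of bone-forming precursors derived from the skull. They were cultured for 5 or 10 days with the plant sterol β-ecdysterone at 0, 100, 150 or 200 μM in a standard medium, and poly(A) RNA was sequenced. The comparison asked which channel genes these cells express and which rise or fall with the sterol. There was 1 library for each dose and day, so the 6 treated libraries (3 doses on each of 2 days) were set against the 2 libraries at 0 μM, 1 per day. Another 2 libraries carried the label untreated with no time, and they were kept out of the main comparison and set beside it. All libraries come from this line, a single subclone, which the labels also describe as bone marrow stem cells of newborn C57BL/6 mice, and nothing in the labels says that libraries came from separate cultures. The p-values therefore measure the spread between these libraries only.

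Voltage-gated potassium, sodium and calcium channels open when the membrane depolarizes, while inward rectifier and tandem-pore potassium channels hold the resting potential and calcium-activated ones answer to calcium inside the cell. Each pore-forming subunit works with auxiliary subunits that set its gating or its transport to the surface. In osteoblasts, calcium entry through such channels is known as a signal for mechanical load, hormones and matrix mineralization.

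Library totals ran from 27108562 to 58218009 counts, and 3 treated libraries (150 μM on both days and 200 μM on day 10) were the deepest, at 53666325 to 58218009 counts. The osteoblast markers were present, with 4 of 10 higher and 0 lower in treated cells, and the 4 beta cell markers had 0 counts in every library. The untreated replicate 2 stood apart from the libraries at 0 μM. Of all genes that rose in treated cells it lay at or beyond the near edge of the treated range for 41.7%, and of all that fell for 75%. The same shares were 17.8% and 17.7% for untreated replicate 1. Values in both untreated libraries are therefore given for each channel gene described that passed the limits below.

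Levels of different genes were compared in FPKM (deposited by the authors and scaled to transcript length and library size), and changes between libraries in CPM (counts divided by the TMM-normalized size of the library). A count was found for 131 of the 138 members in at least 1 library, and 7 were at 0 in all 10 (Kcna3, Kcna5, Kcnip1, Kcnj8, Kcnj11, Kcnk1 and Kcnv1). The number of members with a count was 84 and 68 at 0 μM, 87 to 109 in treated cells and 72 and 75 in the untreated libraries, and the highest numbers came from the deepest treated libraries. A level of 1 FPKM or more was reached by 15 to 19 members in each library and by 13 members in all 10. These 13 held 89.3% to 94.6% of the summed FPKM of all channel genes.

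The highest members shown here belong to calcium channels. Cacng7, a γ subunit that also serves as a partner of AMPA receptors, had a mean of 35.2 FPKM over the 10 libraries (range 30.9 to 42.9), and Cacna1g, the pore of a T-type calcium channel that opens at low voltage, had 33.6 FPKM (range 17.2 to 54.9). Their ranges overlapped. Cacng7 was first in both libraries at 0 μM, where Cacna1g ranked 4. In treated cells Cacna1g was first in 3 libraries and second in the other 3.

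Lower were Cacnb3, a cytoplasmic β subunit of calcium channels (14.5 FPKM, range 10.6 to 19.9), and Scnm1, a splicing factor named for its effect on a sodium channel (14 FPKM, range 12.4 to 16.8). Kcnn4, a calcium-activated potassium channel of intermediate conductance, was the highest potassium channel gene at 9.07 FPKM (range 5.45 to 14). Scn3a, a sodium channel α subunit known from the embryonic nervous system, had 6.78 FPKM, and Cacna2d1, an α2δ subunit that brings calcium channels to the surface, 6.19 FPKM. Also above this level in all libraries were Cacnb1 (6.01 FPKM), the sodium-activated potassium channel Kcnt2 (4.78 FPKM), the L-type pore Cacna1c (3.93 FPKM), the P/Q-type pore Cacna1a (3.87 FPKM) and the sodium channel Scn2a (2.78 FPKM). Over all 10 libraries the ranges of each neighbouring pair in this order overlapped. Within the treated libraries 3 pairs did not, Cacna1g and Cacnb3, Scnm1 (12.4 to 14.2 FPKM) and Kcnn4 (5.45 to 7.79 FPKM), and Kcnt2 and Cacna1c. At 0 μM the order was another one in part, with Cacna1a at 6.39 and 8.22 FPKM above Cacnb1, Kcnt2 and Cacna1c.

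With the splicing factor Scnm1 left out, calcium channel genes held the largest part of the channel transcripts by FPKM in each of the 10 libraries. Their sum was 94.4 and 93.7 at 0 μM and 97.3 to 122 in treated cells. Sodium channel genes without Scnm1 summed to 42.1 and 43.8 FPKM at 0 μM and 46.0 to 58.8 in treated cells, and potassium channel genes without Kcnrg, which are the most numerous, to 30.9 and 27.9 FPKM at 0 μM and 23.1 to 29.5 in treated cells. The sums of calcium and sodium genes did not overlap between treated cells and cells at 0 μM, and those of potassium genes did. The untreated libraries had calcium sums of 92.0 and 94.7 FPKM and sodium sums of 59.2 and 87.7 FPKM. With Scnm1 counted, the sodium sum of untreated replicate 2 was 104 FPKM, above its calcium sum.

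**Figure D1:**
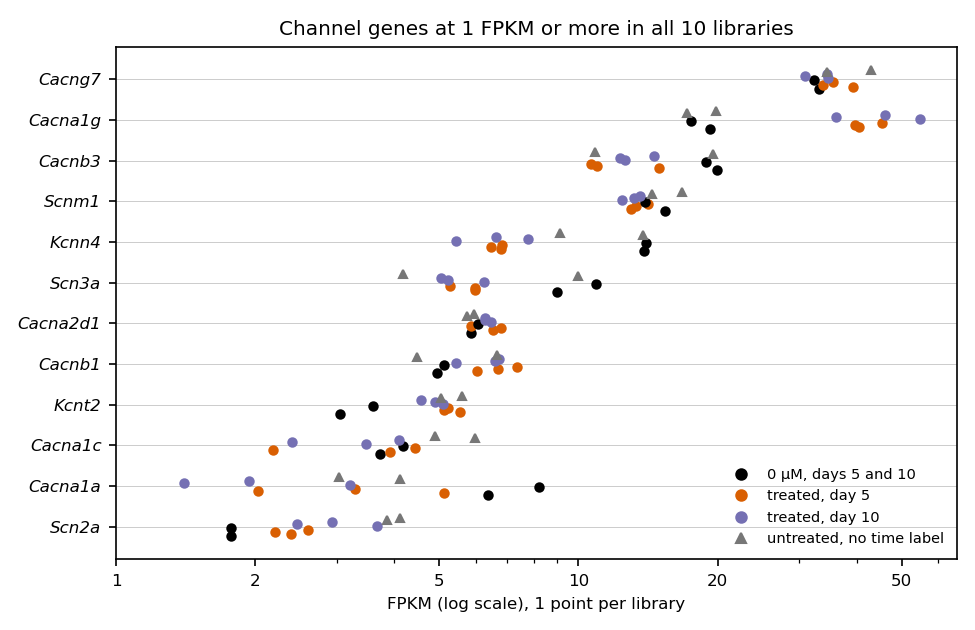
FPKM of 12 channel genes at 1 FPKM or more in every library, on a log axis, with 1 point per library (black, 0 μM; orange and violet, treated on day 5 and day 10; grey triangles, untreated). Treated points lie to the right of the black ones for Cacna1g, Cacnb1, Kcnt2 and Scn2a and to the left for Cacnb3, Kcnn4, Cacna1a and Scn3a.

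**Figure D2:**
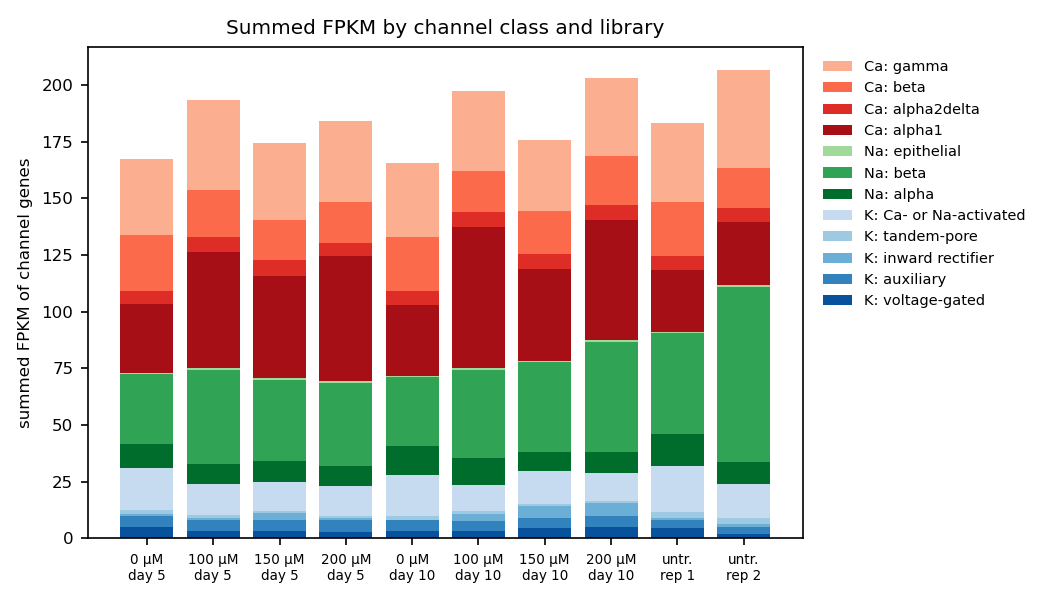
Summed FPKM of the channel genes in each of the 10 libraries, stacked by class (potassium blue, sodium green, calcium red; Scnm1 and Kcnrg, which are not channel subunits, are left out). The calcium α1 class takes 30.2 and 31.2 FPKM at 0 μM and 40.8 to 62.5 FPKM in treated cells.

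For the comparison of treated cells with cells at 0 μM, 66 members passed the filter on low counts. The other 72 had at most 15 counts in any library and a mean of at most 0.0613 FPKM. The limits were a change above 1 on the log2 scale in either direction and an adjusted p below 0.05 (edgeR's quasi-likelihood test in a model that includes day, Benjamini-Hochberg over all 16794 genes tested). By these limits 26 members rose and 6 fell. Among all genes tested, 13.4% rose and 5.98% fell, and among those with an Ensembl identifier 10.1% and 6.31%. The median log2 fold change was 0.82 for the 66 members and 0.05 for all genes. Setting members at 0 counts in both control libraries to their lower bound could not move the first value, because these bounds all lie above it. The 66 include members that passed the filter only through the group where they were high, as described below. At any fold, 39 of the 66 members had an adjusted p under 0.05, against 43.3% of all genes. The values of treated cells and cells at 0 μM did not overlap for 40 of the 66 members and for 52.6% of all genes.

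Most rises took place at a very low level. Of the 26 members that rose, 24 had a treated mean under 1 FPKM, 23 were under 1 CPM in both libraries at 0 μM, and 19 had at most 10 counts in each of them. The filter asked for a minimum of 0.249 CPM in at least 2 libraries. For 19 of the 26 rises neither library at 0 μM reached it, and for 2 of the 6 falls (Kcnh5 and Kcnk10) none of the treated ones did, so these passed only through the group where they were high and their direction was set by the filter. Among them, 6 members had 0 counts in both control libraries. For these a lower bound is given against a floor of 3 counts per library (0.0766 CPM on average), and with 1 to 6 control counts a ratio is given with its counting interval. All members that rose other than Cacna1g together made up 0.788% and 0.721% of the summed channel FPKM at 0 μM and 2.24% to 5.51% in treated cells.

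**Figure D3:**
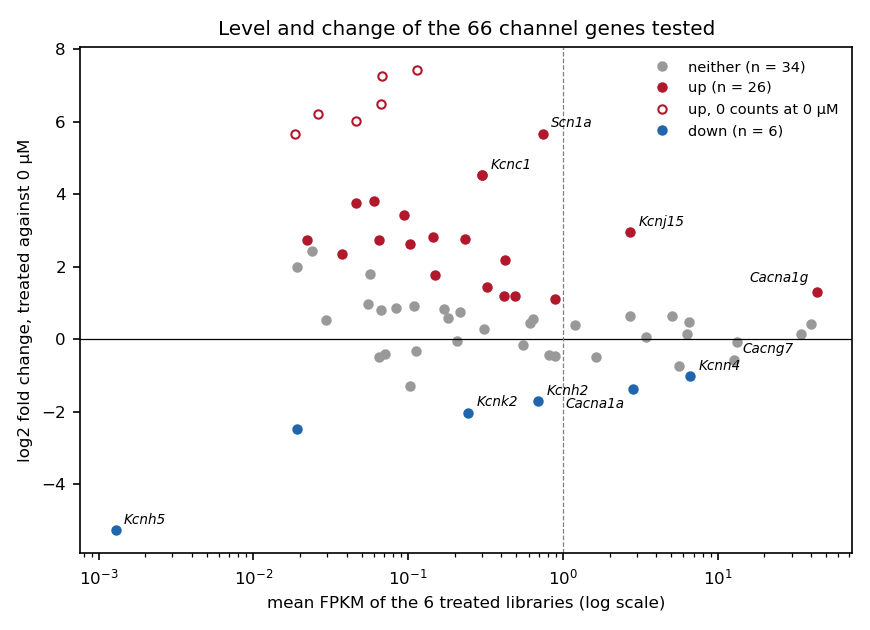
Log2 fold change of the 66 members tested against their mean FPKM in the 6 treated libraries (log axis; red, rose; blue, fell; grey, neither; open red points, members that rose from 0 counts in both control libraries). Cacna1g and Kcnj15 are the 2 rises to the right of the dashed line at 1 FPKM.

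**Figure D4:**
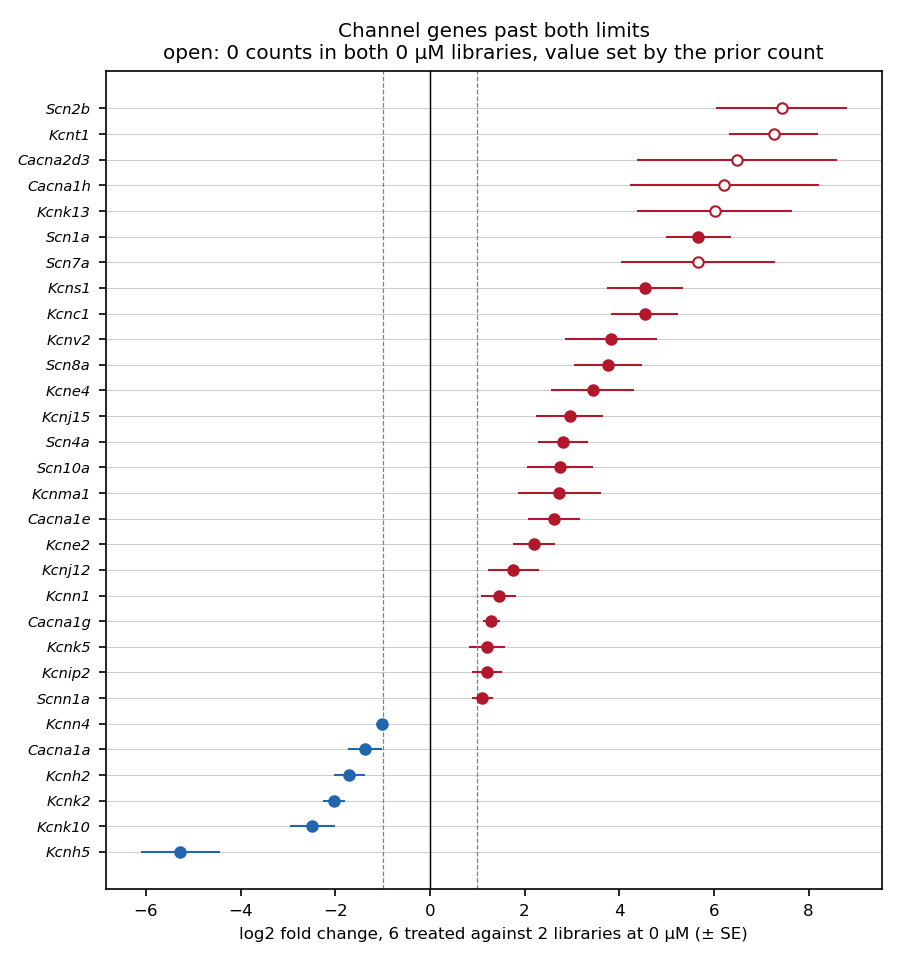
Log2 fold change ± SE of 24 members that rose (red) and the 6 that fell (blue), 6 treated libraries against 2 at 0 μM. The open points had 0 counts at 0 μM, and their positions depend on the prior count of the fit; dashed lines mark the 2-fold limit.

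Promoter windows of 5 of these members are shown because they are the 3 rises and 2 falls of highest CPM among members with exactly 1 window in the RefSeq table for GRCm38.p6, which covers a stretch before and just past each start and held 137 windows for 101 of the 138 members. The start of the Kcnh2 window lies 22013 bases inside the gene as GENCODE draws it, at an internal start, and the starts of the other 4 lie within 29 bases of the gene's annotated start. Each is printed along the strand of the gene, and capitals mark matches, on either strand, to the GC box (GGGCGG), the RUNX core (TGTGGT) and the TATA box (TATAAA). No match shown overlaps another.
Kcnj15, chr16:95257308-95257607, plus strand: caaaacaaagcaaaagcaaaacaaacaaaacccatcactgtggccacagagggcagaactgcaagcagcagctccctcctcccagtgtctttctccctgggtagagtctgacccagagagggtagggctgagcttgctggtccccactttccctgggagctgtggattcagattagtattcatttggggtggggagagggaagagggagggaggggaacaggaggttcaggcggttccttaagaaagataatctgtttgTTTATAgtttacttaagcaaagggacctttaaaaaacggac
Scn1a, chr2:66440788-66441087, minus strand: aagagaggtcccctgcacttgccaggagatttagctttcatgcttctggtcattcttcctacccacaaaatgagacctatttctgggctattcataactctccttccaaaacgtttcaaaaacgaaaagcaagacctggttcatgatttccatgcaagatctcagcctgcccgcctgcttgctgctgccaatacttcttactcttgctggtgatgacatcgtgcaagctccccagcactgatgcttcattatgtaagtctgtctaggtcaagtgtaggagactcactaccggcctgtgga
Kcnc1, chr7:46396218-46396517, plus strand: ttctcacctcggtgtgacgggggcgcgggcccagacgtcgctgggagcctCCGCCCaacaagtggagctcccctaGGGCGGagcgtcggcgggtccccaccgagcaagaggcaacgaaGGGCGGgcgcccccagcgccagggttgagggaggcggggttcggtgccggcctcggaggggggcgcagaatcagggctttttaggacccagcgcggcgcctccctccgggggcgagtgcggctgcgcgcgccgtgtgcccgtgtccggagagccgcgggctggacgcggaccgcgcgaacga
Kcnn4, chr7:24370013-24370312, plus strand: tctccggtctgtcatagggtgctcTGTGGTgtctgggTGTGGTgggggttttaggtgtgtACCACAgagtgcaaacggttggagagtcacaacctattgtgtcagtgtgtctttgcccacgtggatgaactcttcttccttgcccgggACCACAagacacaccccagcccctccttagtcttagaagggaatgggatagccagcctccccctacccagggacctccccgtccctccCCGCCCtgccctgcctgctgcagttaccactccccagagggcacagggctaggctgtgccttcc
Kcnh2, chr5:24329542-24329841, minus strand: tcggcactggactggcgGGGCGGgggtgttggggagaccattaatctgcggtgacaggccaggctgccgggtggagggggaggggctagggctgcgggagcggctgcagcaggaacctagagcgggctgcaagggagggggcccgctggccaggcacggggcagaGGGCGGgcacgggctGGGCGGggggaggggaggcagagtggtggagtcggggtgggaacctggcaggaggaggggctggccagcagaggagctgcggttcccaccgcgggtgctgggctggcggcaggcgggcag

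The windows differed widely in base composition. Kcnc1 and Kcnh2 had a G and C content of 74.7% and 74.3% and 3 GC boxes each, whereas Kcnj15 and Scn1a were at 49.7% and 47.3% with no GC box. The window of Kcnc1 held 41 CpG pairs, that of Kcnj15 2. Kcnn4 was the only one of the 5 with a RUNX core, in 4 places, and Kcnj15 the only one with a match to the TATA box. That match reads on the opposite strand and lies just past the start of the gene, not before it. Over all 32851 windows of the table, 35.7% held a GC box, 16.8% a RUNX core and 13.6% a TATA box, and over the 137 member windows these shares were 46.0%, 13.1% and 5.11%. A match to letters is a description and does not show that a factor binds there.

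Among calcium channel genes, 4 of 15 tested rose and 1 fell. Cacna1g (Ensembl ENSMUSG00000020866, GRCm38 chr11:94408391-94474198) was the only member with a mean above 10 FPKM that passed both limits. It measured 169 and 155 CPM at 0 μM on days 5 and 10, 368, 347 and 410.0 CPM at 100, 150 and 200 μM on day 5, and 541, 341 and 423 CPM at the same doses on day 10. All 6 treated libraries were above both at 0 μM, with the highest value at 100 μM on day 10. The log2 fold change was 1.30 (SE 0.18, adjusted p = 0.000318), a mean of 43.8 ± 6.59 FPKM (SD, n = 6) against 18.4 FPKM at 0 μM. The untreated libraries were at 151 and 185 CPM, near those at 0 μM. The call held with each of the 8 libraries left out and with the untreated libraries as controls, but not when the change had to exceed 2-fold beyond its error (edgeR's glmTreat, adjusted p = 0.119).

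Cacna1a (GRCm38 chr8:84388440-84640246), the pore of the P/Q-type channel known from nerve terminals, moved the other way. It stood at 55.3 and 70.7 CPM at 0 μM on days 5 and 10, at 45.8, 17.4 and 29.2 CPM on day 5 and at 31.1, 13.1 and 17.5 CPM on day 10 in order of dose. Each treated library was below both at 0 μM, and on each day the lowest value was at 150 μM. The log2 fold change was -1.37 (SE 0.36, adjusted p = 0.0127). The untreated libraries, at 35.4 and 27.8 CPM, lay within the treated range, and the call was lost without the 0 μM library of day 10 (log2 fold change -0.87) and with the untreated libraries as controls (-0.30). In FPKM, Cacna1g exceeded Cacna1a by 3.02 and 2.13 times at 0 μM and by 7.90 to 25.7 times in treated cells, and it exceeded the L-type pore Cacna1c by 5.18 and 4.19 times at 0 μM and by 10.2 to 18.2 times in treated cells.

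Cacna1c itself ran from 27.3 to 48.7 CPM in treated cells around 34.5 and 37.8 CPM at 0 μM. The groups overlapped, and the log2 fold change was 0.069 (SE 0.18, adjusted p = 0.783). The remaining rises were near the floor. Cacna1e, the R-type pore, went from 0.215 and 0.189 CPM at 0 μM to 0.433 to 2.95 CPM, a log2 fold change of 2.62 (SE 0.55, adjusted p = 0.00386), which was lost without the 0 μM library of day 10 (1.87) and was 3.53 without that of day 5. The untreated libraries had 0.558 and 0.969 CPM, both within the treated range. Cacna1h, a second T-type pore, and Cacna2d3, an α2δ subunit, had 0 counts at 0 μM and counts in 5 of 6 treated libraries, with means of 0.254 and 0.254 CPM, each at least 3.32-fold higher. In the untreated libraries Cacna1h had 0 and 0.134 CPM and Cacna2d3 0 counts. Both calls were lost without either library at 0 μM, that of Cacna1h also without any 1 of 3 treated libraries and that of Cacna2d3 without either of 2. Exons of Cacna1h overlap Tpsg1 on the opposite strand, and the strand setting of the counting is not given in the sources used here, so reads of the 2 genes cannot be told apart. Of the other members named here, Cacna1a, Cacnb1, Cacnb4, Kcnj15, Kcnk2, Kcnma1, Kcnn1, Kcnt2 and Scn9a overlap annotated genes on the opposite strand, and Kcnab2 overlaps one on the same strand, and these partners were not used here.

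The abundant auxiliary calcium channel subunits stayed within the 2-fold limit. Cacnb3 fell from 54.8 and 52.2 CPM to 30.0 to 42.3 CPM (log2 fold change -0.57, SE 0.14, adjusted p = 0.00824), and Cacnb1 rose from 14.2 and 14.8 CPM to 18.7 to 21.5 CPM (log2 fold change 0.46, SE 0.10, adjusted p = 0.00533). Neither overlapped between the groups. Cacng7 had 80.2 and 78.3 CPM at 0 μM and 80.2 to 97.9 CPM in treated cells (log2 fold change 0.14, SE 0.098, adjusted p = 0.283), and Cacna2d1 43.7 and 43.3 CPM and 45.7 to 53.2 CPM (log2 fold change 0.15, SE 0.083, adjusted p = 0.168). In both, all 6 treated values were above those at 0 μM, but neither difference passed the test.

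Of the sodium channel genes, 8 of 14 tested rose and 0 fell, 6 of them among the 9 α subunits tested. Scn1a, an α subunit known from inhibitory neurons and with none of the searched motifs in its window, had the largest rise of those with counts at 0 μM. It measured 0.117 and 0.126 CPM at 0 μM on days 5 and 10, which was 6 and 4 counts, and 3.2, 5.52 and 4.39 CPM on day 5 and 16.9, 4.78 and 7.93 CPM on day 10 at 100, 150 and 200 μM. All 6 treated libraries were far above both at 0 μM, and 100 μM on day 10 was the highest. The log2 fold change was 5.67 (SE 0.68, adjusted p = 0.000154), and it was called with each of the 8 libraries left out. The untreated libraries differed from each other, with 0.46 and 9.92 CPM, and with them as controls the log2 fold change was 0.45 (adjusted p = 0.761).

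Scn1a lies in a row of 5 sodium channel α genes on chromosome 2, and its neighbours took different courses. In order along GRCm38 these are Scn3a (chr2:65457118-65567627), Scn2a (chr2:65620771-65767447), Scn1a (chr2:66270778-66440840), Scn9a (chr2:66480080-66634962) and Scn7a (chr2:66673425-66784914). Scn3a was the highest of them and fell within the 2-fold limit, from 68.8 and 83.4 CPM to 40.4 to 50.8 CPM (log2 fold change -0.75, SE 0.11, adjusted p = 0.000404). Scn2a rose within it, from 14.3 and 13.5 CPM to 19.6 to 30.7 CPM (log2 fold change 0.65, SE 0.16, adjusted p = 0.0103), with 28.7 and 32.4 CPM in the untreated libraries. Scn9a ran from 0.233 to 1.39 CPM around 0.392 and 0.472 CPM, with a log2 fold change of 0.82 (SE 0.67, adjusted p = 0.347). Scn7a, a sodium sensor that is not gated by voltage, had 0 counts at 0 μM and a treated mean of 0.167 CPM, at least 2.18-fold higher, with 0 counts in the untreated libraries, a call lost in 5 of the 8 fits with a library left out.

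Scn10a (chr9:119608456-119719322), an α subunit known from sensory neurons, had 0.0587 and 0.0944 CPM at 0 μM and 0.237 to 0.76 CPM in treated cells, 7.12 times the level at 0 μM (95% exact Poisson interval 3.27 to 19.4, counting error at 0 μM only). Every treated library was above both at 0 μM and the untreated libraries, which had 0.131 and 0.134 CPM, and the call was lost when either library at 0 μM was left out. Its neighbour on chromosome 9, Scn11a (chr9:119753759-119825456), was too low to test.

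Scn4a, the sodium channel of skeletal muscle, and Scn8a, a neuronal α subunit, kept their calls with every library left out and with the untreated libraries as controls. Neither reached the filter minimum in a library at 0 μM or an untreated one, so both passed only through the treated libraries. Scn4a measured 0.137 and 0.157 CPM at 0 μM and 0.733 to 2.06 CPM in treated cells, with 0.131 and 0.134 CPM in the untreated libraries (log2 fold change 2.82, SE 0.52, adjusted p = 0.00196). Scn8a measured 0.0783 and 0 CPM and 0.277 to 0.925 CPM, with 0.0985 and 0.134 CPM in the untreated libraries, a ratio of 12.6 (95% interval 4.93 to 46.3). In both genes every treated library lay above the other 4.

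The auxiliary and epithelial sodium channel genes included low rises. Scn2b, the β2 subunit, had 0 counts at 0 μM, 0.167, 0.0839 and 0.33 CPM on day 5 and 1.62, 0.64 and 1.0 CPM on day 10 in order of dose, at least 8.37-fold higher on average, which was lost without the 0 μM library of day 10. The untreated libraries had 0 and 0.0668 CPM, below all treated ones. Its 3 values of day 10 were all above those of day 5, a difference that did not pass the test (adjusted p = 0.0738). Scnn1a, the α subunit of the epithelial sodium channel, rose from 1.57 and 1.64 CPM to 2.69 to 4.56 CPM (log2 fold change 1.11, SE 0.23, adjusted p = 0.00348), lost without the 0 μM library of day 5 (0.82). It had 2.0 and 2.87 CPM in the untreated libraries, the second within the treated range. Scnm1, the splicing factor, was at 17.3 and 15.7 CPM and 15.3 to 16.3 CPM, with overlap between the groups (log2 fold change -0.077, SE 0.10, adjusted p = 0.566).

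Potassium channel genes held rises and falls, 14 and 5 of 37 tested. Among voltage-gated subunits 4 of 12 rose and 2 fell. Kcnc1, a fast delayed rectifier of rapidly firing neurons and the member with 41 CpG pairs in the promoter window printed above, had 0.0979 and 0.0629 CPM at 0 μM on days 5 and 10, 0.433, 1.19 and 1.16 CPM on day 5 and 2.81, 5.23 and 5.25 CPM on day 10 at 100, 150 and 200 μM. All treated values were above both at 0 μM, those of day 10 were all above those of day 5, and 100 μM was lowest on each day. The log2 fold change was 4.54 (SE 0.72, adjusted p = 0.000779), and the untreated libraries had 0.0656 and 0.501 CPM. With these as controls the call was lost (3.24, adjusted p = 0.076), while each of the 8 libraries could be left out without losing it. Its size rested on the controls, with 3.21 without the 0 μM library of day 10 and 6.07 without that of day 5.

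Kcns1 and Kcnv2 are silent subunits, which form no channel alone and alter that of their partners. Kcns1 went from 3 and 0 counts at 0 μM to 0.537 to 1.52 CPM, 26.3 times the level at 0 μM (95% exact Poisson interval 9.01 to 128, counting error at 0 μM only), with 0 counts in both untreated libraries. Kcnv2 went from 2 and 0 counts to 0.151 to 0.628 CPM, a ratio of 15.2 (95% interval 4.22 to 126), but the untreated libraries had 0 and 0.367 CPM, the second within the treated range, and without the 0 μM library of day 10 the call was lost. All treated values of Kcns1 were above the other 4 libraries.

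The voltage-gated falls were both in the ether-à-go-go family. Kcnh2, the delayed rectifier that ends the cardiac action potential and whose window had 3 GC boxes, measured 13.6 and 7.46 CPM at 0 μM on days 5 and 10, 2.47, 3.79 and 1.82 CPM on day 5 and 3.04, 4.01 and 4.86 CPM on day 10 in order of dose. The treated libraries were below both at 0 μM, which lay far apart from each other. The log2 fold change was -1.70 (SE 0.33, adjusted p = 0.00249), lost without the 0 μM library of day 5 (-0.91) and -2.34 without that of day 10, and the untreated libraries had 10.0 and 1.87 CPM, the first above and the second within the treated range. Kcnh5 had 16 and 15 counts at 0 μM and 13 and 8 in the untreated libraries, and 0 counts in 5 of 6 treated libraries with 2 in the other (150 μM on day 10), which put 0 μM at 49.1 times the treated level (95% exact Poisson interval 13.6 to 406, counting error in treated cells only). Its adjusted p was 0.000784 by edgeR, and its fitted value moved from -4.72 without the 0 μM library of day 5 to -6.92 on the log2 scale without the 1 treated library that had counts.

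Auxiliary subunits of voltage-gated potassium channels rose in 3 of 7 tested and fell in 0. Kcne2, a small single-pass subunit that pairs with several potassium channels, went from 0.0979 and 0.283 CPM to 0.6 to 1.11 CPM (log2 fold change 2.20, SE 0.45, adjusted p = 0.00338), with 0.131 and 0.635 CPM in the untreated libraries, the second within the treated range. Without the 0 μM library of day 5 the value was 1.63 and without that of day 10 2.91. Kcne4, of the same family, went from 0 and 2 counts to 0.132 to 0.452 CPM, a ratio of 12.4 (95% interval 3.43 to 102), lost without the 0 μM library of day 5. Its untreated values were 0.0985 and 0.234 CPM, the second within the treated range. Kcnip2, a calcium-binding partner of fast transient channels, rose from 0.529 and 0.504 CPM to 0.733 to 1.51 CPM (log2 fold change 1.20, SE 0.32, adjusted p = 0.0128), with 0.821 and 1.7 CPM in the untreated libraries, the second above all treated ones, and was lost without the 0 μM library of day 10 (0.92). The most abundant of the class, Kcnab2, a cytoplasmic β subunit, fell within the 2-fold limit from 9.18 and 9.22 CPM to 5.46 to 7.43 CPM (log2 fold change -0.49, SE 0.16, adjusted p = 0.0294). Kcnrg, a regulator of channel assembly, had 0.313 and 0.22 CPM and 0.233 to 0.57 CPM with overlap between the groups (log2 fold change 0.76, SE 0.46, adjusted p = 0.202).

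Of the inward rectifiers, 2 of 4 tested rose. Kcnj15 (GRCm38 chr16:95257558-95300260), whose window held the TATA box match, was the only potassium channel gene that rose and had a treated mean above 1 FPKM. It measured 1.47 and 0.661 CPM at 0 μM on days 5 and 10, 2.53, 8.67 and 4.03 CPM on day 5 and 14.2, 22.7 and 21.8 CPM on day 10 at 100, 150 and 200 μM. Every treated value was above both at 0 μM, and the 3 of day 10 were above those of day 5. The log2 fold change was 2.95 (SE 0.70, adjusted p = 0.00753), lost without the 0 μM library of day 10 (1.79, against 4.87 without that of day 5) and with the untreated libraries as controls (1.95), which were at 2.76 and 3.64 CPM. Its FPKM per CPM ranged from 0.153 to 0.306 between libraries, against 0.101 to 0.114 for Cacna1g, so its FPKM and CPM did not keep a fixed ratio. Kcnj12, an inward rectifier of heart and muscle, went from 0.117 and 0.126 CPM to 0.316 to 0.771 CPM (log2 fold change 1.76, SE 0.54, adjusted p = 0.0237), lost without either library at 0 μM. In the untreated libraries it had 0.361 and 0.267 CPM, the first within the treated range.

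The tandem-pore genes, which carry leak currents, split into 2 rises and 2 falls of 6 tested, and both falls were of the mechanically gated TREK type. Kcnk2 measured 4.52 and 3.49 CPM at 0 μM on days 5 and 10, 0.999, 0.805 and 0.793 CPM on day 5 and 1.15, 1.13 and 1.2 CPM on day 10 in order of dose. The treated libraries lay close together and below both at 0 μM, a log2 fold change of -2.03 (SE 0.23, adjusted p = 0.00012) that held with each library left out. The untreated libraries were at 4.3 and 0.534 CPM, the first among the controls and the second below all treated ones, and with them as controls the log2 fold change was -1.25 (adjusted p = 0.137). Kcnk10 fell from 0.764 and 0.629 CPM to 0.0565 to 0.233 CPM (log2 fold change -2.48, SE 0.47, adjusted p = 0.00224), with 0.558 and 0.134 CPM in the untreated libraries, and its call was lost without the 0 μM library of day 10.

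Kcnk5, a leak channel sensitive to pH outside the cell, rose against 0 μM, but not against the untreated libraries. It had 0.705 and 0.661 CPM at 0 μM, 1.17 to 2.81 CPM in treated cells (log2 fold change 1.21, SE 0.38, adjusted p = 0.0284) and 3.05 and 6.92 CPM in the untreated libraries, which were above all treated ones. Its call was also lost without either library at 0 μM or 100 μM of day 10. With the untreated libraries as controls its log2 fold change was -1.63 (adjusted p = 0.0162). Kcnk13 had 0 counts at 0 μM and counts in 5 of 6 treated libraries, at least 2.24-fold higher, with 0 and 0.167 CPM in the untreated libraries, the second within the treated range. Its call was lost in 7 of the 8 fits with a library left out, in 5 of them because it no longer passed the filter.

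Among potassium channels gated by calcium or sodium, 3 of 7 tested rose and 1 fell. Kcnn4, the most abundant and the one with RUNX core matches in its window, measured 29.6 and 30.1 CPM at 0 μM on days 5 and 10, 15, 13.8 and 15 CPM on day 5 and 13.2, 17.9 and 14.8 CPM on day 10 in order of dose. All 6 treated libraries were below both at 0 μM with little spread, and the log2 fold change was -1.01 (SE 0.12, adjusted p = 0.000135). This lies at the 2-fold limit, and in 4 of the 8 fits with a library left out it was just inside it. The untreated libraries had 29.5 and 20.7 CPM, above all treated ones. Kcnt2 rose within the 2-fold limit, from 18.1 and 22 CPM to 28 to 34.6 CPM (log2 fold change 0.64, SE 0.12, adjusted p = 0.00194), with 30.8 and 36.6 CPM in the untreated libraries. In FPKM, Kcnn4 exceeded Kcnt2 by 4.53 and 3.88 times at 0 μM and by 1.07 to 1.59 times in treated cells.

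The 3 rises of this class were at low levels. Kcnt1, the close relative of Kcnt2, had 0 counts at 0 μM, 0.533, 0.47 and 0.43 CPM on day 5 and 0.514, 0.395 and 0.405 CPM on day 10 in order of dose, at least 5.98-fold higher. These 6 values lay within a narrow range, and the untreated libraries had 0 and 0.167 CPM. Kcnma1, the channel of large conductance, went from 4 and 0 counts to 0.0999 to 0.486 CPM, a ratio of 6.59 (95% interval 2.57 to 24.2), and Kcnn1, of small conductance, from 0.352 and 0.472 CPM to 0.672 to 1.31 CPM (log2 fold change 1.45, SE 0.37, adjusted p = 0.0103). The call of Kcnma1 was lost without the 0 μM library of day 10 or the 150 μM library of day 5, and that of Kcnn1 without the 0 μM library of day 5. In the untreated libraries Kcnma1 had 0.0985 and 0.0668 CPM and Kcnn1 0.492 and 0.601 CPM, below all treated ones.

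**Figure D5:**
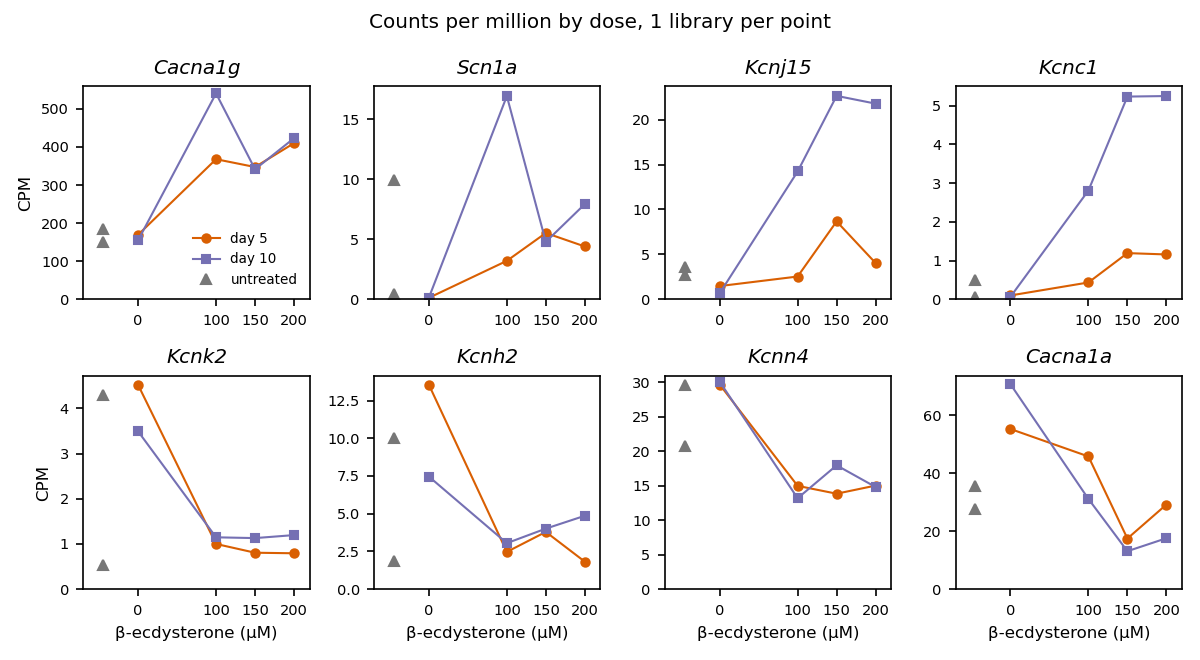
CPM of 8 members against the dose of β-ecdysterone on day 5 (orange circles) and day 10 (violet squares), 1 library per point, with the 2 untreated libraries as grey triangles left of 0 μM. Kcnj15 and Kcnc1 reach higher values on day 10 than on day 5 at every treated dose, and untreated replicate 2 of Kcnk2 and Kcnh2 sits among or below the treated points.

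On each day alone the control was 1 library, so these tests take its spread from the treated libraries. By them, 12 members rose and 5 fell on day 5, where 8.93% and 4.35% of all genes did, and 14 rose and 4 fell on day 10, against 11.2% and 5.78%. In all, 8 members rose and 3 fell on both days, and 0 went in opposite directions. The difference of the responses between the days was tested for 72 members, and 0 had an adjusted p under 0.05 (edgeR's quasi-likelihood test, smallest adjusted p = 0.46; 0 with DESeq2). At an unadjusted p under 0.05 there were 5, Cacna1b, Kcnd1, Kcnf1, Kcnh2 and Kcnj15. Of all genes, 0.0112% passed the adjusted and 8.23% the unadjusted limit.

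Within the 6 treated libraries, a trend with dose was found for 0 of 64 members (smallest adjusted p = 0.997 by edgeR; 0 with DESeq2), and for 0.006% of all genes. At an unadjusted p under 0.05 there were 4, Kcnc1, Kcnj14, Scn10a and Scn3a, where 2.35% of all genes passed. The highest treated value of the 26 members that rose was at 100 μM for 9, at 150 μM for 11 and at 200 μM for 6, and on day 10 for 18.

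Between day 10 and day 5 of treatment, 2 of 64 members rose and 0 fell, against 0.774% and 0.126% of all genes. These were Kcnc1, with a log2 difference of 2.25 (SE 0.30, adjusted p = 0.0165 by edgeR), and Kcnj15, with 1.91 (SE 0.37, adjusted p = 0.0398 by edgeR). Each of the 3 doses was higher on day 10 in both genes. At 0 μM they were lower on day 10 than on day 5, with 1 library each and no test. With DESeq2 4 members rose, and without 100 μM or 200 μM of day 5 none did. With the libraries paired by dose, a choice made after seeing the data, 4 rose by edgeR, Kcnc1 (2.29, adjusted p = 0.00616), Kcnj15 (2.06, adjusted p = 0.00861), Cacna1e (1.48, adjusted p = 0.0292) and Scn2b (2.51, adjusted p = 0.0341). In that fit 181 of all 16664 genes tested were higher on day 10 and 30 were lower.

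Of the 32 calls, 19 were kept without the 0 μM library of day 5 and 16 without that of day 10, against 27 to 31 without a treated library. With each of the 8 libraries left out in turn, 9 of the 26 rises (among them Cacna1g, Kcnc1, Kcne2, Kcns1, Kcnt1, Scn1a, Scn4a and Scn8a) and 2 of the 6 falls (Kcnh5 and Kcnk2) were called every time. The direction was set by the filter, as said above, for 7 of these rises (all but Cacna1g and Kcne2) and for Kcnh5, so their being called again is no sign of stability. With the untreated libraries as controls in place of 0 μM, 28 of the 32 could be tested, and 6 of the 24 rises (among them Cacna1g, Kcns1, Kcnt1, Scn4a and Scn8a) and 0 of the 4 falls were called. Kcns1, Kcnt1, Scn4a and Scn8a were below the filter minimum in both untreated libraries too. In this fit they again passed only through the treated libraries, which set their direction. Untreated replicate 1 lay at or beyond the near edge of the treated range for 9 of the 26 rises and 1 of the 6 falls, and untreated replicate 2 for 14 and 4. For replicate 1 these are 34.6% and 16.7%, against 17.8% and 17.7% of all genes that rose or fell. For replicate 2 they are 53.8% and 66.7%, against 41.7% and 75%.

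Many of the genes that rose are best known from nerve and muscle, so markers of these and other cell types were examined beside them. Of 10 neuron markers 2 rose and 1 fell, and their summed level was 7.88 and 8.80 FPKM at 0 μM and 1.35 to 3.41 FPKM in treated cells, most of it Tubb3, which fell. The neuron markers that rose were Syp, from 0.0979 and 0.126 CPM at 0 μM to 0.218 to 0.633 CPM, and Elavl3, from 0 counts to at most 0.282 CPM. Snap25, Elavl4 and Nefl had 0 counts at 0 μM and reached at most 0.0233, 0.025 and 0.00833 FPKM in any library. Of 6 glia markers 2 rose, among them S100b, with a sum of 3.79 and 2.91 FPKM at 0 μM and 17.0 to 27.0 FPKM in treated cells, while Sox10 reached at most 0.0229 FPKM. Of 10 skeletal muscle markers 3 rose, Ckm, Ttn and Des, with a sum of 0.991 and 0.733 FPKM and of 1.66 to 3.17 FPKM, and Myod1 reached at most 0.0141 FPKM. Of 6 smooth muscle markers Myh11 rose, from 0.0979 and 0.252 CPM to 0.8 to 1.09 CPM, with a sum of 522 and 788 FPKM at 0 μM and 548 to 1055 FPKM in treated cells, most of it Acta2. Of 4 endothelium markers Cdh5 and Tek rose, with a sum of 0.145 and 0.17 FPKM and of 0.449 to 0.604 FPKM, and Kdr had 0 counts at 0 μM. Of the markers that rose, Syp, Elavl3, Ckm and Cdh5 were below the filter minimum in both libraries at 0 μM. These passed only through the treated libraries, so their direction was set by the filter. Of 6 cardiac muscle markers 0 rose and 0 fell, with a sum of 0.699 and 0.657 FPKM and of 0.348 to 0.608 FPKM, and Myl7 had 0 counts in every library. Their part in the changes of the channel genes was not tested, and in bulk RNA fewer cells of a type and less RNA per cell cannot be told apart.

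Other genes of ion transport were taken from 5 lists of 140 genes, 138 of which were in the table and 109 tested, with 25 rises and 5 falls. Of all genes tested, 13.4% rose and 5.98% fell, and of those with an Ensembl identifier 10.1% and 6.31%. Calcium release and store-operated entry had 5 rises and 1 fall of 18. Itpr1, a receptor that releases calcium from internal stores, rose from 102 and 109.8 CPM to 757 to 922 CPM (log2 fold change 2.95, SE 0.13, adjusted p = 6.42e-07), and Stim1, the sensor of store calcium, from 61.5 and 62.8 CPM to 180.2 to 236 CPM (log2 fold change 1.74, SE 0.13, adjusted p = 9.92e-06). Ryr2, the ryanodine receptor of the heart, was at 0 counts in both control libraries and at least 4.21-fold higher with treatment. It passed the filter only through the treated libraries, so its direction was set by the filter. The untreated libraries had 113 and 463 CPM of Itpr1 and 53.5 and 185 CPM of Stim1.

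Pumps and exchangers had 6 rises and 0 falls of 21. The sodium-calcium exchangers Slc8a2 and Slc8a3 rose from 0.627 and 0.441 CPM to 5.73 to 19.7 CPM (log2 fold change 4.11, SE 0.40, adjusted p = 4.48e-05) and from 0.45 and 0.535 CPM to 2.16 to 3.84 CPM (log2 fold change 2.48, SE 0.31, adjusted p = 0.00018). Other cation channels had 8 rises and 2 falls of 28. The sodium leak channel Nalcn, with 6 counts at 0 μM, rose to 1.9 to 7.33 CPM, a ratio of 57.8 (95% interval 26.5 to 157), Pkd2l1 to 0.282 to 1.11 CPM, a ratio of 24 (95% interval 6.63 to 198), and the heat-gated Trpv1 from 0 and 0.252 CPM to 1.41 to 2.69 CPM (log2 fold change 4.23, SE 0.64, adjusted p = 0.000604). Partners and regulators of the channels had 4 rises and 0 falls of 23, all under 1 CPM, of which Gem, a small GTPase that restrains calcium channels, had a ratio of 20.7 (95% interval 5.73 to 171), and Abcc8 and Stac had 0 counts at 0 μM. Chloride channels had 2 rises and 2 falls of 19, among them Lrrc8d, a subunit of the volume-regulated anion channel, which fell from 75.3 and 71.2 CPM to 19.7 to 31.3 CPM (log2 fold change -1.64, SE 0.10, adjusted p = 4.26e-06), its relative Lrrc8b (log2 fold change -1.55, SE 0.19, adjusted p = 0.000165), and Clic5, with a ratio of 10.4 (95% interval 2.87 to 85.7). Nalcn, Pkd2l1, Gem, Abcc8, Stac and Clic5 were below the filter minimum of 0.249 CPM in both libraries at 0 μM. These genes passed only through the treated libraries, so their direction was set by the filter.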

How the data were processed

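RNA of MC3T3-E1 cells was sequenced in 10 libraries. The authors deposited raw counts and FPKM per gene in 1 table. The submitters' processing notes name HISAT2 2.0.4 and GATK 3.2-2 with no role given, and the counting program, its strand setting, the genome build and the annotation are not given in the sources used here. The deposited values hold fewer counts of 1 (2820) than of 2 (12040), so a listed 0 may include very few reads. Columns with the authors' own comparisons of pairs of libraries (fold changes and p-values) were not used.

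Counts were tested with edgeR 4.0.16 (R 4.3.3; TMM, filterByExpr, quasi-likelihood test, Benjamini-Hochberg adjustment over all genes) in a model of day and treatment on 8 libraries. A call needed a change above 1 on the log2 scale and an adjusted p below 0.05. Differences between days used a model of 4 groups, and dose and time within treatment used the 6 treated libraries. CPM were computed with TMM-scaled library sizes. DESeq2 1.42.0 and limma 3.58.1 (on FPKM plus a pseudocount of 1 or 0.1) were alternatives, as were other filters, scalings, controls and each library left out. The fits with 1 untreated library as the only control, or with treated libraries paired by dose, were added after seeing the data. Library totals limit the precision, and intervals cover counting error only. On simulated data with 200 genes changed by 2 on the log2 scale, 176 were called in the treatment comparison among 16794 genes. The changed genes were drawn from all genes tested, so this share was not measured for genes with few control counts.

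Members and lists were chosen with earlier results of these data known. Named are called members (up to the 14 largest rises and falls), the 12 of highest mean FPKM, the highest of each class, those called by day or dose, and up to 3 called genes per associated list by fold change. The other called members, the neighbours of sodium channel genes and members named by unadjusted p were named after their values were seen. Some genes that the rule would name are not reported here and are left out of the plots of named genes, but they stay in all fits and counts. Coordinates were taken by Ensembl identifier from the GENCODE M21 annotation of GRCm38, and promoter windows from RefSeq.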

Additional observations from a re-analysis of the deposited data

Results flagged for a closer look

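In 5 of the 43 members examined in this way, 1 of the 6 treated libraries lay far from the other 5. The measure was its gap to the nearest of them as a share of the whole range (above Dixon's 95% limit for 6 values). That limit assumes 6 replicates with a normal spread. These were 3 doses on 2 days, many at low counts, so it serves only to flag values and gives no chance rate. Scn1a had 16.9 CPM, Scn4a 2.06 CPM and Kcnk5 2.81 CPM at 100 μM on day 10, each the highest of its 6. Kcnj12 had 0.771 CPM at 200 μM on day 10, and Kcnh5 0.0376 CPM at 150 μM on day 10, where the other 5 had 0 counts.

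The untreated libraries, which took no part in the main comparison, exceeded the higher library at 0 μM by more than 2 times, among values of at least 20 counts, for 8 members reported here. In untreated replicate 2 these were Scn2a at 32.4 CPM, Scn1a at 9.92 CPM, Kcnk5 at 6.92 CPM, Kcnj15 at 3.64 CPM, Cacnb4, a β subunit of calcium channels, at 2.37 CPM, Kcnip2 at 1.70 CPM and Cacna1e at 0.969 CPM. In untreated replicate 1 they were Scn2a at 28.7 CPM, Kcnh3, an ether-à-go-go potassium channel, at 4.66 CPM, and Kcnk5 at 3.05 CPM. These levels were not tested, and exons of Kcnh3 overlap Mcrs1.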

How the results depend on the processing

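All 26 rises and 6 falls were called with DESeq2, with library totals or RLE size factors in place of TMM, and with a filter of at least 1 count in total, and 31 of the 32 without day as a covariate. The cause of the moves below was not tested. With at least 10 counts in every library, which leaves 10 of the 32 in the test, 6 members rose and 3 fell. When the change had to exceed 2-fold beyond its error (glmTreat), 11 rose and 3 fell. With limma, whose filter on mean FPKM leaves 17 of the 32 in the test, 2 rose and 1 fell on log2(FPKM + 1), and 8 rose on log2(FPKM + 0.1). Taking the untreated libraries as controls instead of 0 μM, 13 rose and 1 fell, with 6 of the original calls among them, and with both kinds of control 13 rose and 2 fell. With untreated replicate 1 as the only control 13 rose, and with replicate 2 11 rose and 1 fell; these fits take the spread of a lone control from the treated libraries. Leaving out 1 library at a time gave 12 to 27 rises (12 without 0 μM of day 10, 15 without 0 μM of day 5) and 4 to 6 falls. Of the associated genes, 25 rose and 5 fell. Rises numbered 14 with at least 10 counts, 41 with no fold limit, 14 with glmTreat, 13 with untreated controls, 5 and 15 with limma at the pseudocounts of 1 and 0.1, and 9 with untreated replicate 2. Falls numbered 21 with no fold limit, 2 with glmTreat, 2 with untreated controls, 3 with both kinds of control, 3 with untreated replicate 1 and 0 with replicate 2. On day 10 against day 5, 4 members rose with DESeq2 and 4 with the libraries paired by dose, and 0 to 2 with 1 library left out. At least 10 counts in every library were found for 29 members, against 13 at 1 FPKM or more.

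Some log2 fold changes turned direction with other controls. Against untreated replicate 2 alone the value was -0.48 for Scn1a, -0.0027 for Kcnv2, 0.93 for Kcnk2, 0.85 for Kcnh2, -0.31 for Cacng7, 0.22 for Cacnb3, 0.45 for Scn3a, -0.21 for Kcnt2, -0.25 for Cacna1c, 0.90 for Kcnab2, -2.09 for Kcnk5 and -0.44 for Kcnip2. Against both untreated libraries it was -0.13 for Cacng7, -0.10 for Kcnt2, -0.42 for Cacna1c, 0.24 for Kcnab2, -1.63 for Kcnk5 and -0.025 for Kcnip2. With both kinds of control it was -0.19 for Cacna1c and -0.80 for Kcnk5, and with untreated replicate 1 alone -0.56 for Cacna1c and -0.92 for Kcnk5. Cacna1c was at -0.19 and -0.25 with limma at pseudocounts of 1 and 0.1 and between -0.012 (without 100 μM of day 10) and 0.16 with 1 library left out, and Scnm1 between -0.18 and 0.018 (without 0 μM of day 5). With 2 control libraries, and at most 10 counts in each of them for 19 of the 26 rises, depth limits what the counts can show.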
